A study of Homo sapiens with 6 samples.

Results

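The mTORC1 control genes are 10 genes around the growth kinase complex mTORC1, chosen by name with earlier results of these data known. They are DDIT4, DDIT4L, SESN2, SESN3, TSC1, TSC2, RHEB, MTOR, RPTOR and EIF4EBP1. Each had 1 row among the 30676 genes of the deposited table. RNA was sequenced from cells labelled HCT116, an established human colorectal cancer line of wild-type genotype, after 24 hours at 1% oxygen. The tested cells received GIA, a genistein isoflavonoid alkaloid, at 10 µM (3 libraries). The control cells received 0.1% DMSO (3 libraries). All 6 libraries were hypoxic, so the response to low oxygen itself was not measured, and the labels give a DMSO content for the control only. Nothing in the labels states that the libraries were separate cultures, and every p-value here therefore reflects a spread that may be only technical.

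mTORC1 joins the kinase MTOR to its scaffold RPTOR and drives protein synthesis when growth factors, amino acids, energy and oxygen suffice. The small GTPase RHEB switches the kinase on at the lysosome, and the TSC complex of TSC1 and TSC2 holds RHEB in its inactive form. DDIT4 (REDD1), a classical transcript of hypoxia and stress, restrains mTORC1 through TSC, sestrins restrain it through the leucine-sensing branch, and EIF4EBP1 is a repressor of cap-dependent translation that mTORC1 phosphorylates and so releases.

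The 6 libraries held 64804849 to 67835059 estimated counts with GIA and 55725249 to 63542466 with DMSO, so each GIA library was the deeper. Markers of the labelled cell type were only partly present. The keratins KRT8 and KRT18 lay at 134 to 151 and 219 to 274 FPKM (fragments scaled by gene length and library size). The epithelial adhesion gene EPCAM lay at 0.119 to 0.335 FPKM and CDH1, which encodes E-cadherin, at 0.0165 to 0.0490 FPKM. The intestinal genes VIL1 and LGALS4 were at or near 0, with at most 0.0122 and 0.0751 FPKM in any library, and CDX2 had no row. Vimentin (VIM) at 147 to 160 FPKM and the matrix gene LUM at 157 to 197 FPKM, both chosen after their values were seen, were abundant in all 6 libraries. These levels go against an epithelial colon line, and the cells are therefore called the cells labelled HCT116. The leukocyte list and the endothelial list each summed to at most 0.123 FPKM in any library.

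The members covered a wide range of levels in the cells labelled HCT116. Of the 13721 genes with a mean of at least 0.5 FPKM, DDIT4 with a mean of 193 FPKM stood at the 99.1th percentile and EIF4EBP1 with 133 FPKM at the 98.5th. RHEB followed with 39.5 FPKM at the 92.6th percentile. MTOR at 12.8 FPKM and SESN2 at 12.6 FPKM were not separated, since their ranges over 6 libraries overlapped. The same held for RPTOR at 5.01 FPKM and TSC2 at 4.61 FPKM. TSC1 lay below both at 1.58 FPKM, at the 21.8th percentile. DDIT4L, the close relative of DDIT4, had a mean of 0.0710 FPKM and SESN3 of 0.0317 FPKM, and their ranges overlapped each other. These 2 genes were below the filter, so 8 of the 10 members were tested.

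The order in the middle depended on the gene length used. The deposited values imply a length near that of all exons of a gene combined: the implied length was 1.10 times the exon union of GENCODE 29 at the median of 13631 genes. For TSC2 the implied length was 21001 bases, against 6344 bases for its longest coding transcript, and for TSC1 19368 against 8715 bases. With estimated counts scaled by the library total and the longest coding transcript in place of the implied length, TSC2 had a mean of 15.3, between MTOR at 19.6 and SESN2 at 13.8, and stood above RPTOR at 8.82. DDIT4 (248), EIF4EBP1 (126) and RHEB (73.7) kept the upper 3 places on that scale, and TSC1 (3.51), DDIT4L (0.0933) and SESN3 (0.0391) the lower 3.

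**Figure D1:**
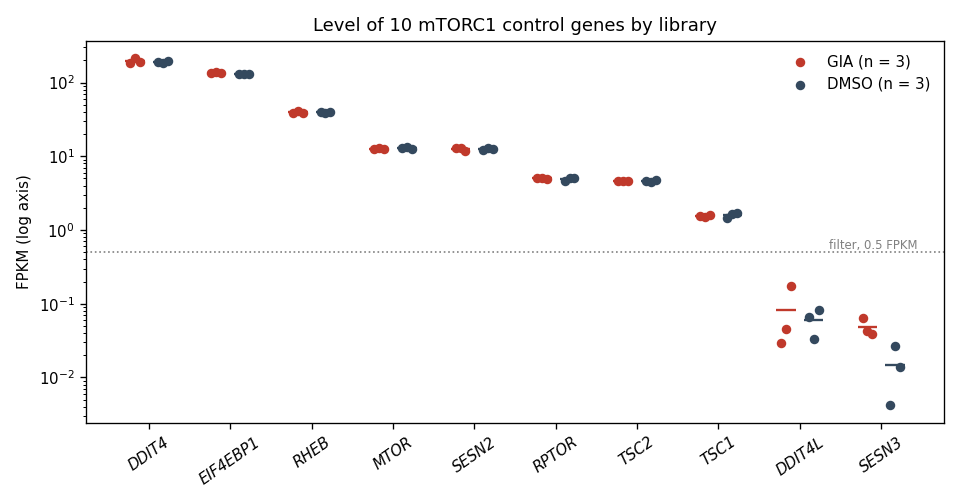
FPKM of the 10 members (log axis) in each GIA library (red, left) and DMSO library (dark, right), with horizontal lines at the group means of 3 libraries. DDIT4 and EIF4EBP1 lie above 100 FPKM in every library, and DDIT4L and SESN3 lie below the filter of 0.5 FPKM in every library.

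The promoters of the 2 pairs of relatives, DDIT4 with DDIT4L and SESN2 with SESN3, are shown because 1 gene of each pair passed the filter and the other did not under the same 1% oxygen. Each run is the 250 bases before the RefSeq start (GRCh38.p14) on the gene's own strand. Capitals mark ACGTG or GCGTG on either strand, the core letters bound by hypoxia-inducible factors. DDIT4 is at chr10:72273674-72273923 (plus strand), DDIT4L at chr4:100190469-100190718 (minus), SESN2 at chr1:28259268-28259517 (plus) and SESN3 at chr11:95232476-95232725 (minus).
DDIT4: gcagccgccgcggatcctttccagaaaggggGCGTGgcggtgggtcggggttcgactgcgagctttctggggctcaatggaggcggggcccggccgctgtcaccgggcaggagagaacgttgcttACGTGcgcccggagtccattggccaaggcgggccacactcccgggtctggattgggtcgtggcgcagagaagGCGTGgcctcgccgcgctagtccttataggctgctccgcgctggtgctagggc
DDIT4L: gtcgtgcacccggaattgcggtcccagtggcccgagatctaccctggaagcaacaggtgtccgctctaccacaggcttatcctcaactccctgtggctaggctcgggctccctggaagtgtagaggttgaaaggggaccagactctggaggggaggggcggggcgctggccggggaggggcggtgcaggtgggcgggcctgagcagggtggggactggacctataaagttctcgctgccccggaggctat
SESN2: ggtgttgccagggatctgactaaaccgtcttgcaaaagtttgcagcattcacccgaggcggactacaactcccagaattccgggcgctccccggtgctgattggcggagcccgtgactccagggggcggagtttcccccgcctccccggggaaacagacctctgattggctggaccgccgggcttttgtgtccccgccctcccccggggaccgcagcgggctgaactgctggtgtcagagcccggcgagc
SESN3: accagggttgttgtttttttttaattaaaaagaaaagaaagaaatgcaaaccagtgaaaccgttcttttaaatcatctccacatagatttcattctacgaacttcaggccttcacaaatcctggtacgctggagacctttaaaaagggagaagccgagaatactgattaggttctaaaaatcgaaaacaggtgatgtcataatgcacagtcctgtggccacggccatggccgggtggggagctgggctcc

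The DDIT4 window held 3 core matches, at -219 to -215, -125 to -121 and -53 to -49 relative to the start, and the windows of DDIT4L, SESN2 and SESN3 held 0. Of 35116 RefSeq windows of this length, 43.2% held at least 1 match, and the median was 0 matches. The share of windows with 3 or more was not counted. RefSeq windows were found for 9 of the 10 members, all but EIF4EBP1. RHEB had 1 match, MTOR 1 and RPTOR 2. TSC1 had 0. The upstream of the 2 TSC2 windows had 2 overlapping matches that read the same palindrome on both strands, and the other had 0. The letters TGATGNAA, a core of the elements that ATF4 binds, occurred on either strand in 3.14% of all windows and, among the members, only in the upstream TSC2 window, overlapping that palindrome. A match is a description of these letters and not of binding.

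No member differed between GIA and DMSO by the test. Of the 8 tested members 0 were higher and 0 lower at an adjusted p under 0.05 (edgeR quasi-likelihood test, Benjamini-Hochberg over 13721 genes), against 0% of all genes tested. The smallest adjusted p of any gene was 0.875. At an unadjusted p under 0.05 edgeR had 630 genes (4.59%), DESeq2 651 and limma 670, and each of these tools also called 0 genes. Of the 8 members, 0 had an unadjusted p under 0.05 by edgeR. The log2 fold changes of the members, GIA over DMSO, lay between -0.04 and 0.05 with a median of 0.0036, against 0.00038 over all tested genes. The 95% interval stayed within 1.2-fold either way for all 8 tested members, as it did for 55.9% of all tested genes. In bulk RNA, fewer cells of a type and less RNA per cell cannot be told apart.

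DDIT4 had 182, 216 and 192 FPKM in GIA libraries 1 to 3, against 191, 183 and 193 FPKM in DMSO libraries 1 to 3. GIA library 2 stood above the rest, and the other 5 libraries overlapped between 182 and 193 FPKM. The group means were 197 ± 17.4 FPKM with GIA and 189 ± 5.51 FPKM with DMSO (SD, n = 3 each). Its log2 fold change of 0.05 had an SE of 0.05 and a 95% interval from -0.07 to 0.18. Leaving out GIA library 2 gave -0.013, and leaving out GIA library 1 gave 0.10. The interval reached 1.13-fold at its upper end. Fibroblast markers were also highest in GIA library 2, where DCN had 16.0 FPKM against 11.2 to 13.1 FPKM in the other 5. The 4 of 6 listed fibroblast genes with a row summed to 17.7 to 24.6 FPKM with GIA and 17.6 to 18.9 FPKM with DMSO, with COL3A1 at 0 in all but 1 library, and their part in the DDIT4 value was not tested. DDIT4 lies on chromosome 10, 72273924 to 72276036 (GRCh38), and the antisense gene model over it, DDIT4-AS1, averaged 0.0059 FPKM.

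DDIT4L, which also restrains mTORC1, had 0.0290, 0.0458 and 0.172 FPKM with GIA, against 0.0654, 0.0327 and 0.0813 FPKM with DMSO. These rest on 7, 12 and 37 estimated counts with GIA and 12, 7 and 17 with DMSO, where 1 fragment may be worth about 4 counts. The groups overlapped, and any difference was not detectable at this depth.

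SESN2 encodes a stress-induced sestrin that senses leucine and inhibits the GATOR2 complex. It had 13.0, 12.8 and 11.9 FPKM with GIA, against 12.1, 13.0 and 12.7 FPKM with DMSO. Low and high libraries occurred in both groups, and the means were 12.6 ± 0.620 FPKM with GIA and 12.6 ± 0.476 FPKM with DMSO. The log2 fold change was -0.0036 (SE 0.05, interval -0.12 to 0.12). Its sign turned without GIA library 3 (0.033), DMSO library 2 (0.021) or DMSO library 3 (0.0017).

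SESN3, the sestrin known as a target of FOXO factors, had 0.0632, 0.0433 and 0.0390 FPKM with GIA, against 0.0042, 0.0269 and 0.0138 FPKM with DMSO. Each GIA library lay above each DMSO library, at 50, 34 and 30 estimated counts against 3, 18 and 11. How often genes this low separate in this way was not counted, since the share given for non-overlapping groups covers tested genes only. With no filter on low values the log2 fold change of SESN3 was 1.63 (SE 0.59, 95% interval 0.27 to 2.99). The adjusted p was 0.751 by edgeR. As for DDIT4L, the number of fragments may be smaller than these counts. The interval may therefore be too narrow, and it was not recomputed for SESN3 with divided counts. The GIA libraries were also the deeper ones, and the part of depth in whether such a rare transcript is sampled was not tested.

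TSC1 and TSC2 form the GTPase-activating complex for RHEB. TSC1 had 1.57, 1.50 and 1.61 FPKM with GIA, against 1.46, 1.63 and 1.70 FPKM with DMSO. The GIA libraries lay inside the range of the DMSO libraries, and the log2 fold change was -0.04 (SE 0.07, interval -0.20 to 0.12). It was -0.10 without DMSO library 1 and 0.0075 without DMSO library 3. TSC2 had 4.57, 4.68 and 4.63 FPKM with GIA, against 4.58, 4.45 and 4.76 FPKM with DMSO. Its GIA libraries again lay within the DMSO range, at 0.0068 on the log2 scale (SE 0.04, interval -0.08 to 0.09), and at -0.015 without DMSO library 2. PKD1, on the opposite strand, overlaps TSC2 and averaged 4.94 FPKM. The libraries were strand-specific per the labels, but whether strand was used in counting is not stated. The ratio of TSC1 to TSC2 FPKM was 0.337 ± 0.0146 with GIA and 0.348 ± 0.0254 with DMSO (SD, n = 3 each, two-sided exact permutation p = 0.6, where 0.1 is the smallest possible).

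RHEB had 39.2, 41.3 and 38.2 FPKM with GIA, against 40.3, 38.9 and 39.3 FPKM with DMSO. The highest and the lowest value were both in GIA libraries, and the log2 fold change was 0.00036 (SE 0.04, interval -0.09 to 0.09). Leaving out GIA library 2 gave -0.026, while the value was -0.0093 without DMSO library 2 and -0.0039 when DMSO library 3 was dropped. RHEB has processed pseudogenes on chromosome 10 that can share its reads, so its level is uncertain: RHEBP2 averaged 41.7 FPKM and RHEBP1 13.3 FPKM. RHEB itself held 81.2% of the counts of the 3 models together. Their sum was 188 ± 8.08 CPM (counts scaled by library total) with GIA and 189 ± 1.54 CPM with DMSO. The related GTPase gene RHEBL1 averaged 4.03 FPKM, with a log2 fold change of -0.017 (SE 0.14).

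MTOR, the kinase, had 12.7, 12.9 and 12.4 FPKM with GIA, against 12.8, 13.3 and 12.5 FPKM with DMSO. The groups overlapped. On the log2 scale the difference was -0.03 (SE 0.04, interval -0.11 to 0.06), and -0.0014 without DMSO library 2 and -0.046 without DMSO library 3. RPTOR, the scaffold that brings substrates to the kinase, had 5.07, 5.07 and 4.98 FPKM with GIA, against 4.66, 5.13 and 5.13 FPKM with DMSO. DMSO library 1 was the lowest and the other 5 lay close together. The log2 fold change was 0.02 (SE 0.05, interval -0.09 to 0.12), and -0.029 without DMSO library 1.

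EIF4EBP1 was the only one of the 8 tested members whose groups did not overlap. It had 134, 137 and 135 FPKM with GIA, against 130, 132 and 131 FPKM with DMSO. Each GIA library lay above each DMSO library, which also held for 5.63% of all tested genes, and 11.2% did not overlap in either direction. The means were 135 ± 1.74 FPKM with GIA and 131 ± 1.18 FPKM with DMSO (SD, n = 3 each), which is 0.05 on the log2 scale (SE 0.03, 95% interval -0.03 to 0.12; adjusted p = 0.875 by edgeR). It lay between 0.04 and 0.06 without any single library. Its partner EIF4E, the cap-binding protein that EIF4EBP1 blocks, had 2.87 ± 0.142 FPKM with GIA and 3.07 ± 0.140 FPKM with DMSO. The ratio of EIF4EBP1 to EIF4E FPKM was 46.9, 50.3 and 44.7 with GIA, against 41.2, 41.8 and 44.9 with DMSO. The size of this ratio depends on the gene lengths used. For EIF4EBP1 the implied length of 963 bases was 0.898 times its exon union of 1073 bases. The 10th percentile of that quotient over 13631 genes was 1.07. The length behind the EIF4E value was not examined. GIA library 3 lay just below DMSO library 3, and the log2 difference, GIA minus DMSO, was 0.15 (two-sided exact permutation p = 0.2, where 0.1 is the smallest possible).

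**Figure D2:**
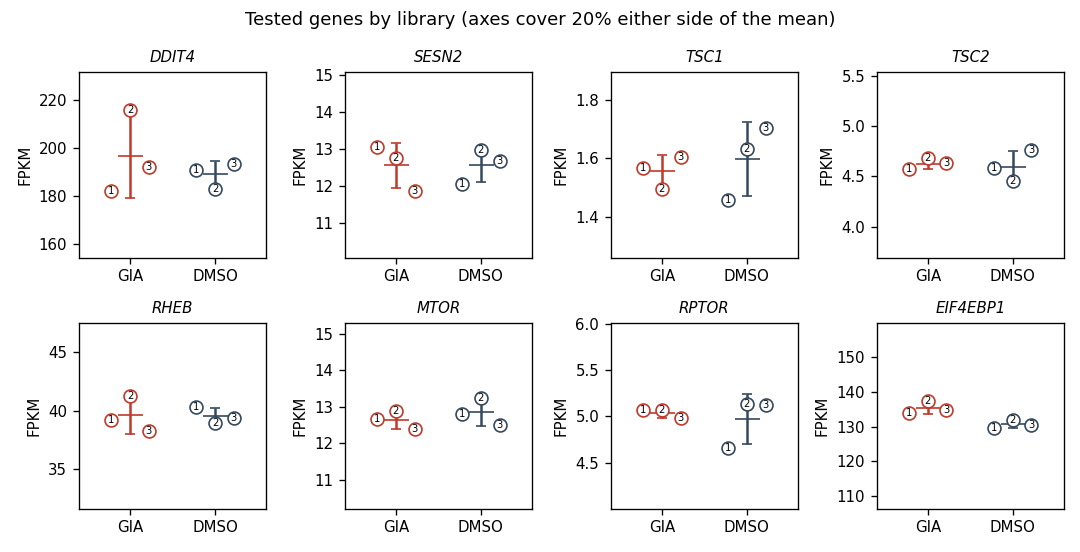
FPKM of the 8 tested members in GIA libraries (red, left) and DMSO libraries (dark, right). Circles carry the library number and bars show the mean and SD of 3 libraries. Each axis is centred on the mean of the gene over all libraries, spans the same share of that mean in every panel and does not start at 0. The groups overlap in every panel except EIF4EBP1, and DDIT4 in GIA library 2 stands apart at 216 FPKM.

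The members differed in how steady they were. The coefficient of variation over all 6 libraries was 2.16% for EIF4EBP1, 2.27% for TSC2, 2.41% for MTOR and 2.73% for RHEB, which lay between percentiles 5.08 and 10.3 of tested genes. It was 3.53% for RPTOR and 3.94% for SESN2. TSC1 with 5.66% and DDIT4 with 6.37% lay at percentiles 43.2 and 49.6. The value of DDIT4 rested on 1 library: without GIA library 2 it was 2.90%, below TSC1 at 5.62%, SESN2 at 4.33% and RPTOR at 3.90%. Without DMSO library 1, RPTOR had the lowest coefficient of the 8. The genes whose log2 (FPKM + 0.5) followed DDIT4 most closely over the 6 libraries were NADK (Pearson r = 0.999), FGA (0.998) and LAMB2 (0.998). FGA had 3.51, 7.37 and 4.45 FPKM with GIA, against 4.29, 3.66 and 4.45 FPKM with DMSO, with the high value again in GIA library 2. NADK at 18.8 FPKM and LAMB2 at 22.1 FPKM were also highest in GIA library 2. How far the correlations with DDIT4 rest on that library was not tested. For SESN2 the closest were NAIF1 (0.989), ERI2 (0.983) and ZFP41 (0.974). These are the highest values out of 13721 genes over only 6 libraries, and 206 genes reached 0.95 with DDIT4 and 12 with SESN2.

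The other genes around mTORC1 also gave no call. The 6 lists held 91 genes, of which 90 had a row and 84 were tested. Of the 84, 0 were higher and 0 lower by edgeR, and 42 fold changes were positive and 42 negative. An unadjusted p under 0.05 by edgeR was found for 7 of the 84, against 4.59% of all tested genes. Groups did not overlap for 10 of the 84, against 11.2% of all tested genes. GIA lay above in 3 and below in 7, against 773 and 769 of all 13721 tested genes.

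Amino acid sensors upstream of the Rag GTPases held the farthest value. Of 17 genes 16 were tested and 0 passed, with a median log2 fold change of -0.0059. BMT2 (also SAMTOR), a sensor of S-adenosylmethionine, had 1.31, 1.29 and 1.29 FPKM with GIA, against 0.864, 0.851 and 0.993 FPKM with DMSO. The GIA libraries lay together above all DMSO libraries, by 0.52 on the log2 scale (SE 0.13, 95% interval 0.22 to 0.82). The edgeR quasi-likelihood test gave it an adjusted p of 0.875. By limma on log2 (FPKM + 1), which understates changes of low genes, its log2 fold change was 0.27. SEH1L, a GATOR2 and nuclear pore subunit, had -0.12 (SE 0.05; -0.063 without GIA library 2). SEC13, the most abundant gene of the list, had 21.1 ± 0.607 FPKM with GIA and 20.8 ± 0.224 FPKM with DMSO.

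Of the Rag GTPases, Ragulator subunits and folliculin genes, which dock mTORC1 on the lysosome, 11 of 12 were tested and 0 passed. Their median was -0.05, with 3 positive and 8 negative. The Ragulator anchor LAMTOR1 had 29.2, 30.0 and 29.1 FPKM with GIA, against 30.5, 31.0 and 31.8 FPKM with DMSO. All its GIA libraries lay below the DMSO libraries, with a log2 fold change of -0.08 (SE 0.04). LAMTOR2 had 0.09 (SE 0.08; 0.032 without GIA library 2 and 0.14 without DMSO library 3). RRAGA was the most abundant of the list at 31.3 ± 1.59 FPKM with GIA and 32.1 ± 1.72 FPKM with DMSO.

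All 10 other subunits and assembly factors of mTOR complexes were tested and 0 passed, with a median of -0.02. TELO2, which helps to assemble the kinase, had 10.4, 10.5 and 9.95 FPKM with GIA, against 11.5, 11.4 and 10.9 FPKM with DMSO. The groups did not overlap and the log2 fold change was -0.13 (SE 0.05). PRR5, a subunit of mTOR complex 2, had -0.18 (SE 0.11; -0.088 without GIA library 2 and -0.28 without GIA library 1). MLST8, common to both complexes and the most abundant of this list, had 15.6 ± 1.11 FPKM with GIA and 15.9 ± 0.380 FPKM with DMSO.

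Of the growth factor and energy inputs to the TSC complex, 20 of 24 genes were tested and 0 passed, with a median of 0.03. PRKAB2, a subunit of the energy sensor AMPK, had 0.13 (SE 0.06) and the insulin receptor substrate IRS2 0.11 (SE 0.04). PRKAA1, the AMPK catalytic subunit and the most abundant of the list, had 26.8 ± 1.23 FPKM with GIA and 26.0 ± 0.457 FPKM with DMSO. STK11, the kinase LKB1 that activates AMPK, averaged below the filter. It had 0.386, 0.503 and 0.314 FPKM with GIA, against 0.279, 0.387 and 0.362 FPKM with DMSO, and was named after its values were seen.

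Among mTORC1 effectors, 18 of 19 genes were tested and 0 passed, with a median of 0.01. ULK1, the autophagy kinase, had 13.0, 16.3 and 13.9 FPKM with GIA, against 12.5, 11.6 and 13.8 FPKM with DMSO. Its groups overlapped and its log2 fold change of 0.18 (SE 0.08) was 0.094 without GIA library 2. LPIN1, a phosphatidate phosphatase, had 3.81 ± 0.0168 FPKM with GIA and 4.08 ± 0.0647 FPKM with DMSO, at -0.10 (SE 0.04). RPS6, the ribosomal protein whose phosphorylation is read as a report of pathway activity, had 269 ± 13.1 FPKM with GIA and 269 ± 0.501 FPKM with DMSO.

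The 9 transcription factors known to induce DDIT4 or sestrin genes were all tested and 0 passed, with a median of 0.03. ATF4 was the most abundant at 156 ± 3.34 FPKM with GIA and 152 ± 0.633 FPKM with DMSO, a log2 fold change of 0.03 (SE 0.03; 0.018 without GIA library 2). ARNT, the constant partner of hypoxia-inducible factors, had 14.0 ± 0.514 FPKM with GIA and 13.4 ± 0.372 FPKM with DMSO.

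**Figure D3:**
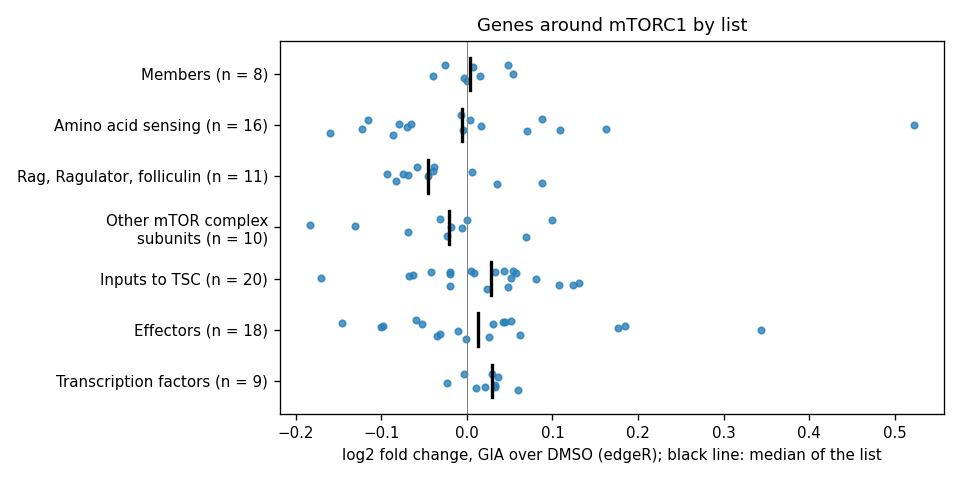
Log2 fold change, GIA over DMSO, of each tested gene (dots) in the members and in 6 lists of genes around mTORC1, with the median of each list as a black line. BMT2 in the amino acid sensing list lies farthest from 0, at 0.52.

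**Figure D4:**
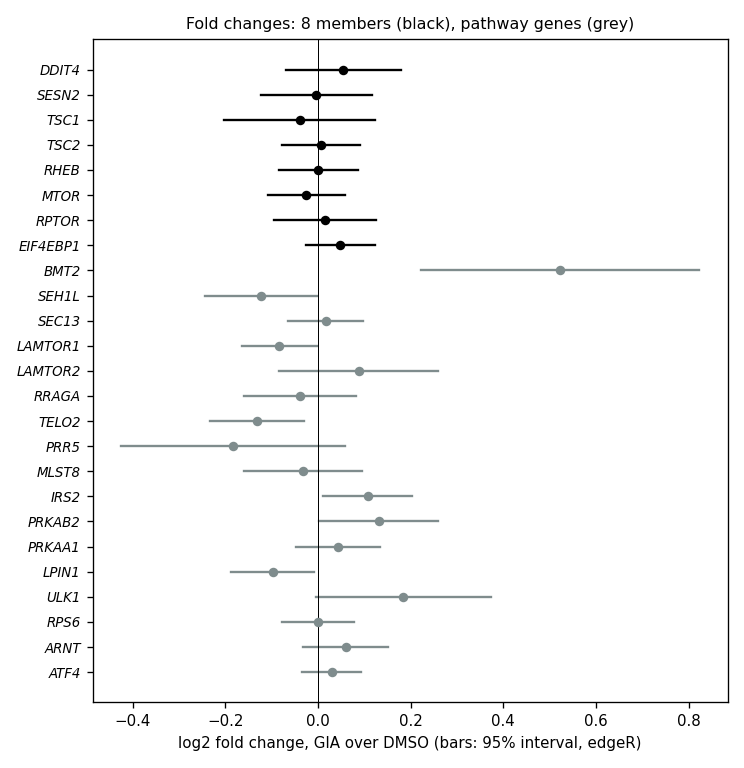
Log2 fold change, GIA over DMSO, with 95% intervals from edgeR for the 8 tested members (black) and the named genes of the lists (grey). All member intervals cover 0, and the intervals are those of single genes, not adjusted for their number.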

How the data were processed

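The table deposited by the authors gives an estimated count and an FPKM per gene and library, per the file headers. The submitters' processing notes name FastQC 0.10.1, cutadapt, HISAT2 2.2.1, StringTie 2.1.6, DESeq2 1.22.2 and GRCh38, without a role or order. The annotation release is not stated there. The columns are named Ctrl or G with a number, and G was taken to mean GIA, with the number as in the library titles. The counts were whole, so rounding left them as deposited. They may count 1 fragment about 4 times, and since the number of fragments limits precision, the counts divided by 4 were an alternative. The 13721 genes whose FPKM averaged 0.5 or more were tested with the quasi-likelihood test of edgeR 4.0.16 (R 4.3.3), two-sided, with TMM scaling, no covariate and Benjamini-Hochberg adjustment over all of them, at a threshold of 0.05. The common biological coefficient of variation was 11.0%. SE and 95% intervals were derived from the F statistics. The test was checked on simulated counts. Alternatives were DESeq2 1.42.0, limma 3.58.1 on log2 (FPKM + 0.1, 0.5 or 1), other scaling and filters, a replicate block and each library left out.

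Genes named are the members, the 2 genes of smallest p and the most abundant gene of each list, and the 3 genes closest in pattern to DDIT4 and SESN2. EIF4E, STK11, VIM, LUM and gene copies were added after their values were seen. The members and lists were chosen with earlier results of these data known. Gene positions are those of the table, and promoters are from RefSeq (GRCh38.p14).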

Additional observations from a re-analysis of the deposited data

How the results depend on the processing

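Of 8 tested members and 84 pathway genes, 0 were called under any of the 16 alternatives to the fit, of which a mean FPKM of at least 5 left only 6 and 52 of them to test. Over all genes the number called was 3 with the replicate block and 0 to 5 without any single library, with 5 without GIA library 3. Whether the numbers pair the libraries was not settled, since same-number deviations from the group means correlated weakly, at 0.0334 to 0.0966. Each GIA library was still closest to the DMSO library of its own number. Members whose groups did not overlap, untested SESN3 included, numbered 2 to 4 without any single library. The 4 without DMSO library 1 were SESN3, TSC1, RPTOR and EIF4EBP1. Of the 8 tested members these were 3, where 20.9% of all tested genes did not overlap (19.2% to 27.1% without any single library). Neighbouring members with overlapping ranges numbered 3 by FPKM, 2 by exon-union length and 1 by longest coding transcript, a choice made after seeing the data.

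Signs turned in 22 of 395 comparisons of a gene's fold change with an alternative, all of genes near 0. Single-library ranges were -0.013 to 0.10 for DDIT4, -0.035 to 0.033 for SESN2, -0.10 to 0.0075 for TSC1, -0.015 to 0.031 for TSC2, -0.026 to 0.021 for RHEB, -0.029 to 0.040 for RPTOR, -0.00087 to 0.038 for SEC13, -0.086 to 0.023 for MLST8 and -0.028 to 0.034 for RPS6. RHEB had -0.00046 with no filter and -8.2e-05 with the replicate block. With a mean FPKM of at least 5, SESN2 had 0.0055 and RPS6 0.0090. RPS6 had 0.0025 with library totals and 0.00067 by limma with each pseudocount. BMT2 stayed between 0.27 and 0.60 under the alternatives, with adjusted p of 0.469 to 0.996. Depth limits DDIT4L and SESN3, at no more than 50 counts per library.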
